A study of Caenorhabditis elegans with 2 samples.

Results

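Of the 7020 nuclear peaks in the authors' thresholded list of NHR-80 binding, 239 (3.4%) had their summit within 200 bp of an annotated tRNA gene, and these are the peaks described here. The thresholded list holds the peaks that passed the irreproducible discovery rate (IDR), a limit set from how well peak ranks repeat between replicates. The summit is the base of highest signal in a peak. Members were chosen by position alone, with a distance of 0 given to a summit inside the gene. The 239 summits lay in 236 peak intervals and had 236 different nearest tRNA genes. Applied to as many of the strongest peaks of each replicate, the same rule gave 246 peaks in replicate 1 and 231 in replicate 2 (mean 238.5 ± 10.6 SD, n = 2).

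The peaks come from chromatin immunoprecipitation and sequencing (ChIP-seq) of whole Caenorhabditis elegans hermaphrodites, collected as young adults 64 h after starved L1 larvae were synchronised. The strain, OP460, carries the integrated transgene wgIs460, which encodes NHR-80 with a C-terminal GFP-FLAG tag, in an unc-119(tm4063) background that is shared by all samples. There was 1 group of 2 biological replicates, so no condition could be compared and all the animals carried the transgene. The labels do not say which promoter drives it, and cells of all tissues were pooled, so a peak cannot be placed in a tissue.

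The nuclear hormone receptor NHR-80 resembles HNF4 and acts in the expression of fatty acid desaturase genes. tRNA genes are short and are transcribed by RNA polymerase III rather than by polymerase II. Their promoter lies inside the transcribed sequence, as an A box near the 5′ end and a B box near the 3′ end, both bound by the factor TFIIIC, which brings in TFIIIB just upstream of the gene. No control profile and no other factor were analysed here, so whether the signal at tRNA genes is particular to NHR-80 was not tested.

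The sequences of some tRNA genes beside strong peaks show where the internal promoter letters lie. The 8 sequences below, from RefSeq on build WBcel235 (the assembly of ce11), belong to strong peaks, 1 for each of 8 amino acids, and leave out some stronger ones, such as those at B0350.t1 and F01G12.t1. They are written 5′ to 3′ along the gene, and capitals mark an A box match (TNGNNNAGT) and a B box match (GTTCAA or GTTCGA), searched on the gene's own strand.
Y54G2A.t3 (tRNA-Asp, chrIV:2805627-2805698, plus strand): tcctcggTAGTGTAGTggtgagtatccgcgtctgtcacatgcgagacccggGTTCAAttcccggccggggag
T22F7.t1 (tRNA-Tyr, chrIII:535382-535465, plus strand): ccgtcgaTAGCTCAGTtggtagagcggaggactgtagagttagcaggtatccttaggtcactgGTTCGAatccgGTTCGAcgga
C10G8.t1 (tRNA-Gln, chrV:5330139-5330210, minus strand): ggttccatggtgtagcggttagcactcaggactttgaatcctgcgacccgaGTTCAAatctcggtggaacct
C18A11.t2 (tRNA-Arg, chrX:8036685-8036757, minus strand): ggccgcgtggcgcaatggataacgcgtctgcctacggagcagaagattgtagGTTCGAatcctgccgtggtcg
F10C1.t1 (tRNA-Gly, chrII:5782212-5782282, minus strand): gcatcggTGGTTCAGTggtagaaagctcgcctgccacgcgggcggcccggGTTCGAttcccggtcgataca
F57F5.t1 (tRNA-Ile, chrV:12002176-12002260, plus strand): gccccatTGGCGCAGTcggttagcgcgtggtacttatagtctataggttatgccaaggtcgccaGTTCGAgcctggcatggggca
T23F1.t2 (tRNA-Pro, chrV:15465225-15465296, minus strand): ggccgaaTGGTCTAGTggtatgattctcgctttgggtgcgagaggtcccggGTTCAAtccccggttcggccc
C33G3.t2 (tRNA-Lys, chrX:14063946-14064018, minus strand): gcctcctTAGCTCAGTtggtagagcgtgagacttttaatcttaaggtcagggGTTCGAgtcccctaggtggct
In 6 of the 8 an A box match began at base 8, and all 8 held a B box match. Y54G2A.t3, F10C1.t1 and F57F5.t1 occur once among the tRNA genes, and T22F7.t1 has 1 identical copy. The other 4 sequences are repeated in 10 to 24 genes, and the share of their copies with a summit within 200 bp ran from 6 of 15 for the tRNA-Gln sequence of C10G8.t1 to 6 of 10 for the tRNA-Arg sequence of C18A11.t2. Over all 612 tRNA genes of the nuclear chromosomes, 96.1% held the B box match and 62.9% the A box match, with median first bases of 53 and 8.

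Sequence around the summits shows where the peaks sat on the gene. The 101 bases centred on the summit are given along the strand of the tRNA gene for the pair of strongest peaks and for 3 of the stronger ones with the summit inside a tRNA gene, with the summit at base 51. Capitals mark bases of the annotated tRNA gene.
Y54G2A.t3 (chrIV:2805680-2805780, plus strand): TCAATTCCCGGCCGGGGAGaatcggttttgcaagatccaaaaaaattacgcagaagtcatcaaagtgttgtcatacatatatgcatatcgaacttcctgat
B0350.t1 (chrIV:5967244-5967344, plus strand): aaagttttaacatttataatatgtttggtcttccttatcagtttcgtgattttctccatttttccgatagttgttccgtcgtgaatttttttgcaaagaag
C33G3.t2 (chrX:14063959-14064059, minus strand): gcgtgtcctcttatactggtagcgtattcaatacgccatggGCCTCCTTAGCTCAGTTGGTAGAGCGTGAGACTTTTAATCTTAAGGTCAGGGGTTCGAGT
C18A11.t2 (chrX:8036639-8036739, minus strand): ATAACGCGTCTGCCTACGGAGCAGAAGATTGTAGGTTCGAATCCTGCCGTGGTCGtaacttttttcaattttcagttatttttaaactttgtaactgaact
C04A11.t1 (chrX:13665523-13665623, plus strand): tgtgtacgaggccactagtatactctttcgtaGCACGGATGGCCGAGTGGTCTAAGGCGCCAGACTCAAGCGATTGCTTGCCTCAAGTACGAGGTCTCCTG
Around the summit of the strongest peak, at Y54G2A.t3, 19 bases belonged to the tRNA gene, and around that at B0350.t1 none did. Around the other 3 summits, 55 to 69 of the 101 bases did. At C33G3.t2 and C04A11.t1 the summit lay 9 and 18 bp from the 5′ end, near the A box position, and at C18A11.t2 it lay at 68 bp, past the B box match.

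Peaks were more frequent at tRNA genes than at other genes. Of the 612 nuclear tRNA genes, 263 had a summit within 200 bp (43.0%, 95% Wilson interval 39.1 to 46.9), against 10.1% of the 46278 other nuclear genes. That background holds 15363 piRNA genes, of which 0.749% had a summit. Protein-coding genes were at 16.9% and lincRNA genes at 22.2%. The share of tRNA genes was 43.8% with the strongest peaks of replicate 1 and 40.8% with those of replicate 2 (mean 42.3 ± 2.08% SD, n = 2). Intervals cover counting error only, and because neighbouring genes can share a peak they are narrower than for independent genes.

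tRNA genes differed from other short genes too. Of 7585 other genes of at most 200 bp, piRNA genes left out, 11.8% had a summit. Among the other small RNA classes the share was 27.5% for snoRNA genes, which encode guides of RNA modification (28.6% and 26.9% in the replicates). It was 14.0% for snRNA genes, which encode RNAs of the spliceosome among others, and 9.58% for miRNA genes. The tRNA interval did not overlap any of these.

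Annotated tRNA pseudogenes, degenerate copies of tRNA genes, were almost free of peaks. Summits lay within 200 bp of 4 of 209 (1.91%, interval 0.747 to 4.82), and the count was 4 with each replicate's strongest peaks as well. The share over the 2128 genes of biotype pseudogene was 2.96%, within that interval, so few peaks were not particular to tRNA pseudogenes. The full pooled list of 30000 peaks, most of them below the threshold, reached 34 of the 209 pseudogenes (16.3%) and 430 of the 612 tRNA genes (70.3%). The letters of the promoter boxes were common in both classes: 80.4% of pseudogenes held the B box match and 56.9% held both matches, against 96.1% and 59.6% of tRNA genes. Among the 119 pseudogenes with both matches 1 had a summit, and among the 365 tRNA genes with both 176 did (48.2%; replicates 46.3% and 44.1%). Of the 24 tRNA genes without the B box match 6 had a summit (25%, interval 12 to 44.9), which is too few to separate from the rest.

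Most tRNA genes without a thresholded peak had a summit within 200 bp in another of the lists. Of the 263 genes with a summit, 197 were within 200 bp of a strongest peak of both replicates, 62 of 1 replicate and 4 of neither. A further 167 genes had a summit in the pooled list only below the threshold, with a median signal of 59.8 and a maximum of 92.7, just under the lowest thresholded signal of 93.0. Only 102 genes had no summit within 200 bp in any of the lists. The full pooled list is labelled as holding peaks and background, so a row in it need not be signal at the gene. The share over all other genes in the full lists was not counted. The signal value comes from the authors' lists, in the caller's own unit, and serves here only to describe peaks within a list.

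Summits sat on the gene body and its immediate 5′ flank. Of the 239 summits, 124 (51.9%) were inside the gene, 73 (30.5%) upstream and 42 (17.6%) downstream. The split was alike in the replicates' own peaks, with 50.4% and 52.4% inside and 31.7% and 30.3% upstream. The median summit was 15 bp downstream of the 5′ end in the thresholded list and in each replicate, and the quartiles of the thresholded list were −12.5 and 62 bp. Summits were most frequent in the 20 bp from the 5′ end on, where 57 lay and where the A box begins. The 20 bp starting 40 bp upstream held 33. The summits of the overlapping replicate peaks lay a median of 9 and 13 bp away (upper quartiles 29.5 and 34 bp), so these positions are approximate. Summits inside the gene had a median position of 26.5 bp in a gene of median length 72 bp.

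**Figure D1:**
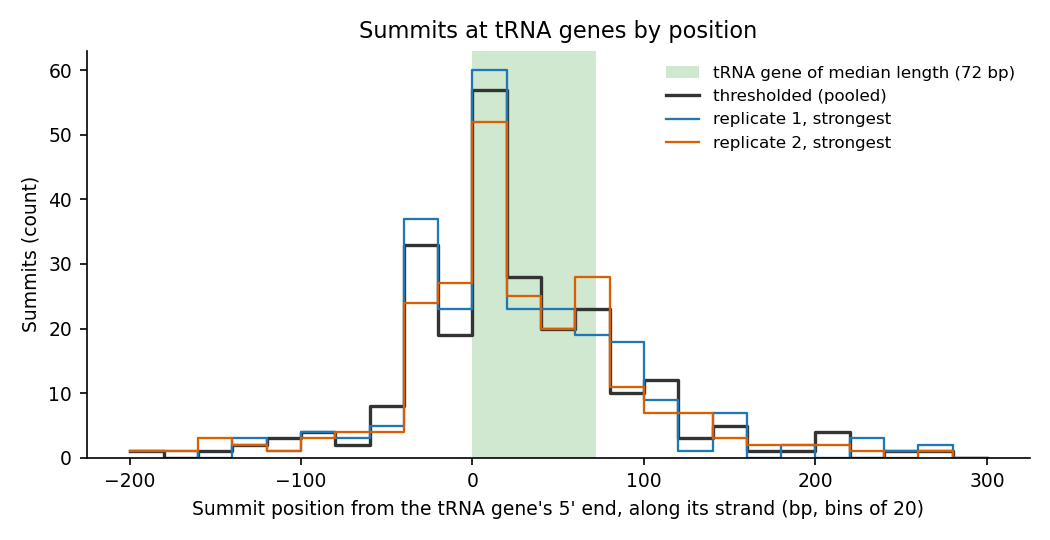
Summits within 200 bp of a tRNA gene, counted in bins of 20 bp (y axis) by position from the 5′ end of the nearest tRNA gene along its strand (x axis, bp), for the thresholded list and for the strongest peaks of each replicate. The highest bin of all 3 lists begins at the 5′ end, where the thresholded list has 57 summits, and counts fall away on both sides of the gene.

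Frequency fell steeply with distance. Outside the gene, 85 summits lay 1 to 50 bp away, 15 at 51 to 100 bp, 11 at 101 to 150 bp and 4 at 151 to 200 bp. Beyond the limit, 2 lay at 201 to 250 bp, 3 at 251 to 300 bp and 5 at 301 to 400 bp, so the distance of 200 bp fell in a sparse stretch. The last members were at C10G8.t1 (186 bp, signal 457), R04A9.t1 (187 bp, 392) and C18A11.t2 (196 bp, 453). The first peaks left out were near F22H10.t1 (206 bp, 199), Y57G11C.t1 (225 bp, 108) and F42A10.t2 (254 bp, 896).

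Peaks at tRNA genes were weak among NHR-80 peaks. Their signal ran from 93.8 to 680 with a median of 132 (quartiles 113 and 169), while the other 6781 nuclear peaks reached 1709 with a median of 198. The median of the tRNA peaks was 0.666 of that of the others. In replicate 1 the medians were 75.7 and 108, and in replicate 2 they were 63.3 and 93.0. Only 41 of the 239 (17.2%) were at or above the median of all nuclear peaks, against 51.2% of the others.

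Signal was tied to position within the group. The median signal was 126 for the 124 summits inside the gene, 149 for the 85 at 1 to 50 bp, 167 for the 15 at 51 to 100 bp and 341 for the 15 at 101 to 200 bp. In replicate 1 the same medians were 73.9, 73.3, 96.0 and 158, and in replicate 2 they were 57.4, 69.1, 78.0 and 126. The lowest distance classes were thus close in replicate 1 and ordered in replicate 2, and the farthest class was highest in both. Only 6 of the 124 summits inside a gene (4.84%) were at or above the median of all nuclear peaks, against 17 of the 30 at more than 50 bp (56.7%). All 17 peaks with a signal over 300 had their summit outside the gene.

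**Figure D2:**
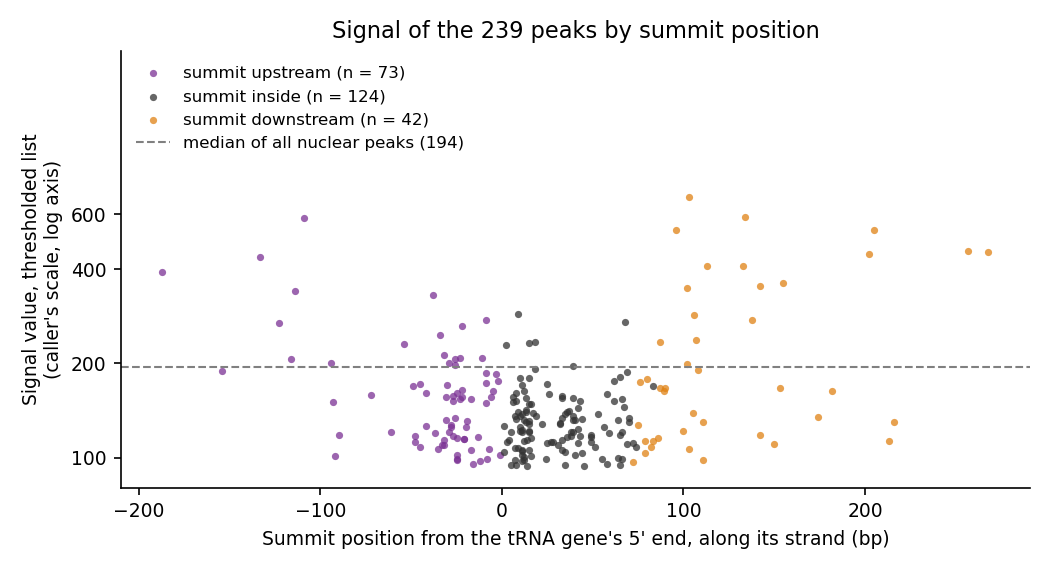
Signal value of each of the 239 peaks (y axis, caller's scale, log axis) against summit position from the 5′ end of the nearest tRNA gene (x axis, bp), coloured by place, with the median of all nuclear peaks at 194 as a dashed line. Summits inside the gene stay at or under 288, and the highest values, up to 680, lie outside it.

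The strongest member, with a signal of 680 (364 in replicate 1 and 314 in replicate 2), had its summit 32 bp downstream of the tRNA-Asp gene Y54G2A.t3 on chromosome IV. That summit was also 127 bp from the start of the protein-coding gene Y54G2A.45. The peak at B0350.t1, a tRNA-Lys gene on chromosome IV, had a signal of 588 (312 and 281). Its summit was 62 bp downstream, and 5025 bp from the nearest annotated 5′ end of a protein-coding gene. The peak at the tRNA-Glu gene F01G12.t1 on chromosome X had a signal of 582 (300 and 285), with the summit 109 bp upstream, in the 5′ UTR of a protein-coding gene. The replicates gave these peaks nearly the same rank, 226 and 216 at Y54G2A.t3, 374 and 326 at B0350.t1, and 422 and 312 at F01G12.t1.

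The peak at K07A1.t1, a tRNA-Ser gene on chromosome I, had a signal of 536 (291 and 246), and its summit was 44 bp from the start of aqp-9, which encodes an aquaporin. At the tRNA-Tyr gene T22F7.t1 on chromosome III the signal was 534, and here the replicates differed most in proportion among the 5 strongest (323 and 210). The other 7 of the 12 strongest were at C10G8.t1, C18A11.t2, C12C8.t2, T03E6.t1, F02D10.t2, C56G7.t1 and R04A9.t1, with signals from 457 down to 392. All 12 summits lay outside the tRNA gene, 5 of them in the promoter window of a protein-coding gene, and 4 were on chromosome X. All 12 ranked at 950 or better in replicate 1 and at 1553 or better in replicate 2. On chromosome II the strongest was at the tRNA-Gly gene F10C1.t1, with 361 (186 and 177).

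The strongest peak with its summit inside the gene, at the tRNA-Lys gene C33G3.t2 on chromosome X, had a signal of 288 (179 and 112). The next was at C18A11.t2, with 271, in the interval that also holds the stronger summit 196 bp away. The replicate values of that interval, 258 and 196, are of its strongest peak and cannot be divided between the summits. At the tRNA-Leu gene C04A11.t1 on chromosome X the signal was 234.8 (132 and 99.8). In both C33G3.t2 and C04A11.t1 replicate 1 had the higher value, but the scales of the lists are not shown to be equal.

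The peaks were concentrated in a middle range of ranks. Ordered by signal, the first 1000 of the pooled list held 11 peaks at tRNA genes, none with a summit inside the gene. The number rose to 71 (46 inside the gene) at ranks 5001 to 6000 and 66 (41 inside) at 6001 to 7000, and fell to 15 at ranks 10001 to 11000. Both replicates had the same shape, with most in ranks 5001 to 6000 of replicate 1 (69) and 6001 to 7000 of replicate 2 (75). The thresholded list ends at 7038, close to where peaks at tRNA genes are most frequent.

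**Figure D3:**
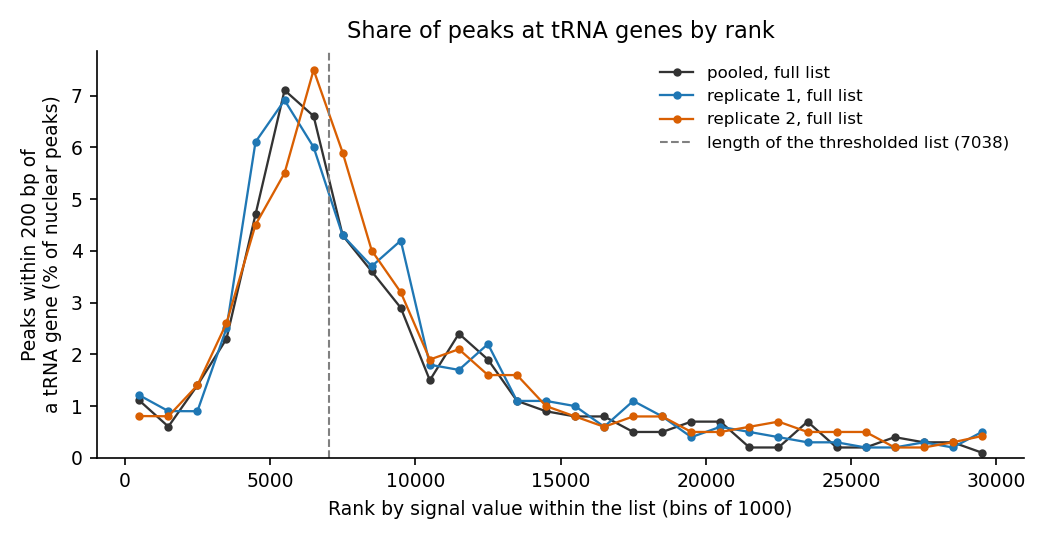
Percentage of nuclear peaks within 200 bp of a tRNA gene (y axis) in successive bins of 1000 ranks by signal (x axis) for the full pooled list and the full list of each replicate, with the length of the thresholded list (7038) as a dashed line. All 3 lists rise to between 6.91% and 7.50% in the bins from rank 5001 to rank 7000 and are lower on both sides.

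The peaks repeated between replicates less often than other peaks. Of the 239, 185 (77.4%, interval 71.7 to 82.3) overlapped a strongest peak of both replicates, against 89.8% of all nuclear peaks and 90.3% of those away from tRNA genes. Among those under the median signal the shares were 72.7% of 198 at tRNA genes (interval 66.1 to 78.5) and 80.2% of 3312 elsewhere (78.8 to 81.5). For summits inside the gene the share was 72.6%, and for those over 50 bp away it was 93.3%. All 239 overlapped some peak in the full list of each replicate, as did 99.7% of the other nuclear peaks. At 231 of the 239 the replicate summits were also within 200 bp of the tRNA gene. As a description, the rank correlation of the signals of the replicates was 0.70 over the 239 peaks and 0.94 over 6759 others. Under the median signal it was 0.49 over 198 and 0.67 over 3291. These peaks come from the pooled list, so the values do not measure agreement independently. Signals at tRNA genes also spanned a narrower range (quartiles 113 and 169, against 134 and 313 at other peaks), so the correlations are not directly comparable.

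tRNA genes of C. elegans are dense on the X chromosome, and so were the peaks at them. X carried 276 of the 612 tRNA genes (45.1%) and 110 of the 239 peaks (46.0%), but only 22.4% of the other nuclear peaks and 17.7% of the nuclear genome. There were 15.6 tRNA genes per Mb on X and 4.07 per Mb on the autosomes. Peaks away from tRNA genes numbered 85.9 per Mb on X and 63.7 per Mb on the autosomes, and all nuclear peaks 92.1 and 65.3. The peaks at tRNA genes were 6.74% of the peaks on X and 2.39% of those on the autosomes.

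Per gene, the share on X was only slightly higher. A summit was within 200 bp of 126 of 276 tRNA genes on X (45.7%, interval 39.9 to 51.5) and of 137 of 336 on autosomes (40.8%, 35.7 to 46.1), and the intervals overlap. In the replicates the shares were 50.4% and 45.3% on X and 38.4% and 37.2% on autosomes. Among autosomes the share ran from 32.1% of 78 genes on V to 52.6% of 57 on II, with III, I and IV between them. The order of II and V held in both replicates, at 47.4% and 49.1% for II against 29.5% and 30.8% for V. The thresholded list from which II and V were picked was made from these replicates, so they are not independent of it. The intervals of II and V in the thresholded list, 39.9 to 65.0 and 22.7 to 43.0, overlap.

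**Figure D4:**
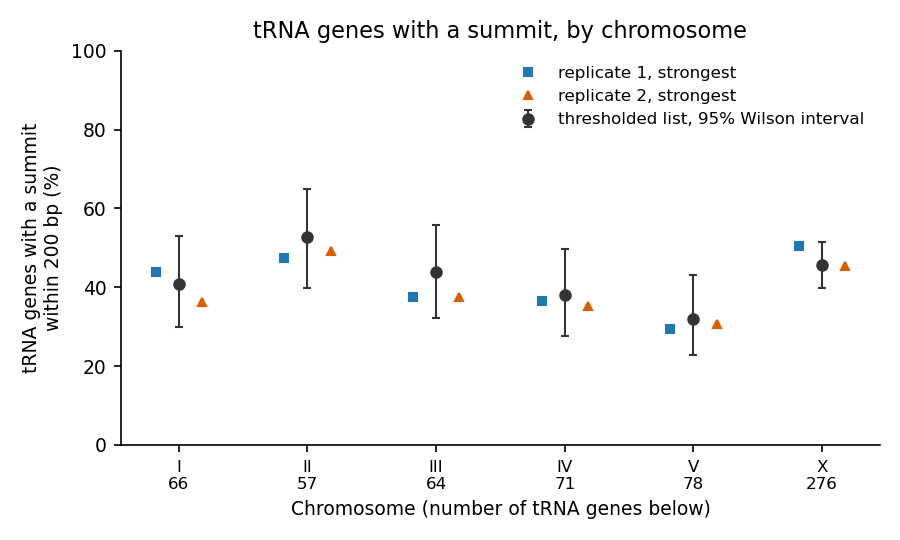
Percentage of tRNA genes with a summit within 200 bp (y axis) by chromosome, with the number of tRNA genes under each name (x axis). Circles give the thresholded list with 95% Wilson intervals, squares and triangles the strongest peaks of replicates 1 and 2; chromosome V is lowest in all 3 lists, and the intervals of the chromosomes overlap.

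Peaks were found at tRNA genes of all 20 standard amino acids. The share ran from 61.5% of 13 tRNA-Cys genes, 59.3% of 27 tRNA-Asp genes and 58.8% of 34 tRNA-Thr genes down to 26.3% of 19 tRNA-Tyr, 25% of 20 tRNA-Met and 15% of 20 tRNA-His genes. tRNA-Cys stayed highest (69.2% in each replicate), whereas tRNA-Asp fell to 51.9% and 44.4% and tRNA-Thr to 52.9% and 44.1%. tRNA-His had 2 and 4 genes with a summit in the replicates. Its interval, 5.24 to 36.0, lay below those of tRNA-Asp (40.7 to 75.5), tRNA-Thr (42.2 to 73.6) and tRNA-Lys (38.1 to 65.9), and just reached that of tRNA-Cys (35.5 to 82.3). These classes were picked from the ends of the order in the same list, and many of their genes are identical copies. The intervals are therefore no test of a difference, and copy number was not held equal between amino acids. Of the 20 tRNA-His genes, 11 had a summit in the full pooled list. The 1 tRNA-Sec gene and the 5 tRNA genes with no amino acid in RefSeq had no thresholded summit.

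**Figure D5:**
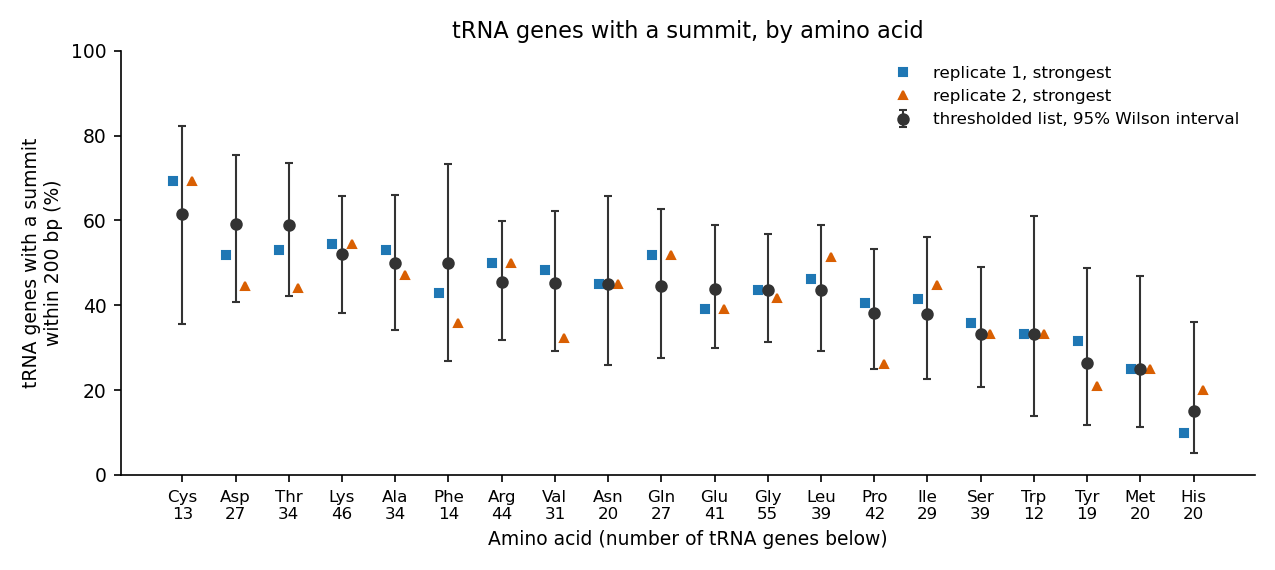
Percentage of tRNA genes with a summit within 200 bp (y axis) by amino acid, ordered by the thresholded list, with the number of genes under each name (x axis). Circles give the thresholded list with 95% Wilson intervals, squares and triangles the strongest peaks of each replicate; the shares fall from tRNA-Cys at 61.5% to tRNA-His at 15%, and most intervals overlap.

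An amino acid with few peaks could still have a strong one. The strongest peak of tRNA-Tyr had a signal of 534, whereas the strongest of tRNA-Cys reached 172 and that of tRNA-Phe 148. The median signal over the genes of an amino acid lay between 107 for tRNA-Phe and 165 for tRNA-Gln. The range of medians was thus narrow beside the spread of single peaks.

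Many tRNA genes are exact copies of each other, so reads from inside them cannot be placed by the gene's own sequence. The 612 genes have 200 distinct sequences, 469 genes have at least 1 identical copy, and for 426 of these a copy lies on another chromosome. Among the 239 peaks, 202 had a nearest gene with an identical copy. Genes of unique sequence had a summit in 39 of 143 cases (27.3%, interval 20.6 to 35.1; replicates 27.3% and 28.0%). The share was 46.8% with 2 to 3 copies, 42.2% with 4 to 10, 48.4% with 11 to 20 and 54.5% with more than 20. How the authors' mapping treated reads that fit several places is not given in the sources used here, and its part in this difference was not tested.

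The promoter letters of unique and copied genes were counted as well. The B box match was in 91.6% of unique genes and 97.4% of copied ones. The A box match was in 57.3% and 64.6%, and both matches in 51.7% and 62.0%. With the B box match, 27.5% of 131 unique genes and 48.4% of 457 copied genes had a summit. Whether the letters bear on the difference in peaks was not tested. Within a family of identical genes some had a thresholded peak and others did not: the 20 families of at least 10 copies had summits at 18.2% to 72.7% of their genes. A pair of families of 15 copies each, not shown above, are given here, with capitals marking the same matches.
C16C8.t2 (tRNA-Thr, chrII:3439219-3439290, minus strand): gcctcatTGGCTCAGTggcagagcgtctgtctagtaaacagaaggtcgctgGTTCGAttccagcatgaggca
M03A1.t1 (tRNA-Ala, chrII:4565389-4565460, plus strand): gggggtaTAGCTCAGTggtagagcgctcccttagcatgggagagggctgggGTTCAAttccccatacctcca
The tRNA-Thr sequence had a summit at 10 of 15 genes (10 and 8 in the replicates), and the tRNA-Ala sequence at 9 of 15 (9 in each). Of the 15 genes of the tRNA-Gln sequence of C10G8.t1, 6 had one (7 in each replicate).

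tRNA genes with others close by had peaks no more often than lone ones. With a gap of at most 1000 bp, 236 genes formed 100 clusters, 78 of them pairs and the largest of 6 genes. A summit was within 200 bp of 91 of the 236 clustered genes (38.6%, interval 32.6 to 44.9; replicates 38.1% and 34.3%) and of 172 of the 376 lone genes (45.7%, 40.8 to 50.8; 47.3% and 44.9%). In the full pooled list the order was the opposite, with 78.0% of clustered and 65.4% of lone genes. Of the 239 peaks, 65 (27.2%) were at clustered genes, and no cluster had more than 2.

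The cluster listed first by number of peaks and signal holds F49C5.t4 (tRNA-Lys), F49C5.t3 (tRNA-Leu) and F49C5.t2 (tRNA-Ala) at chrII:12541688-12542705. Its peak at F49C5.t4, 29 bp upstream of the gene and within 200 bp of another tRNA gene, had a signal of 201 (86.0 and 108). The peak at F49C5.t2, 111 bp downstream, had 163 (81.5 and 85.04). All 3 genes had a summit within 200 bp in both replicates as well, and 7 other clusters also held 2 peaks.

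Peaks at tRNA genes were placed away from protein-coding promoters more often than other peaks, as tRNA genes themselves are. The promoter window reached from 1000 bp before a protein-coding start to 200 bp after it. A start here is the annotated 5′ end of the gene, so starts of shorter transcripts inside a gene were not counted. It held 54 of the 239 summits (22.6%, interval 17.8 to 28.3) and 48.6% of the other nuclear summits. Introns of protein-coding genes held 40.6% against 21.4%, and 34.7% against 24.1% lay outside protein-coding genes. The middles of all 612 tRNA genes were split in nearly the same way, with 18.3% in promoter windows, 43.3% in introns and 37.7% outside protein-coding genes. In the replicates' own peaks at tRNA genes 23.6% and 20.3% were in promoter windows.

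The median distance from a summit at a tRNA gene to the nearest protein-coding start was 1532 bp (1564 and 1617 bp in the replicates), against 812 bp for other peaks. tRNA genes had a summit about as often inside a protein-coding gene (42.3% of 293) as between genes (43.6% of 319). By distance to a protein-coding start the share was 50.5% of 93 genes within 500 bp, 45.1% of 91 farther but within 1000 bp, 41.8% of 153 up to 2000 bp, 43.8% of 194 up to 5000 bp and 32.1% of 81 beyond. The intervals of the nearest and the farthest class, 40.6 to 60.5 and 22.9 to 42.9, overlap. The order of these 2 classes was the same in replicate 1 (47.3% and 33.3%) and replicate 2 (45.2% and 30.9%).

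The letters around the summits differed from those at other NHR-80 peaks. TGATAA, a form of the site of GATA factors such as those of the intestine, was sought on both strands in the 101 bases centred on each summit, as were the other motifs below. It was present at 33 of the 239 summits (13.8%, interval 10.0 to 18.8; replicates 11.4% and 10.8%), against 38.7% at other peaks. Other peaks under the median signal had it at 34.5%, and the nuclear genome in pieces of the same length at 9.35%. By place the share was 10.5% for summits inside the gene, 17.6% at 1 to 50 bp and 16.7% farther away. Windows of the same length centred on tRNA genes held it at 6.46% with a summit and 7.45% without. Because the peaks were chosen by distance to tRNA genes, the windows of 209 of the 239 summits held tRNA sequence. The part of this in the lower share than at other peaks was not tested.

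AGGTCA, a core element in the sites of many nuclear receptors, was present at 16 of the 239 summits (6.69%) and at 3.21% of other peaks. Of these 16, 13 had the summit inside the tRNA gene, and windows centred on tRNA genes without a summit held these letters as often (7.45%). CAAAGT, part of the site of HNF4-type receptors in mammals, was present at 4.60% of the summits, against 7.09% at other peaks and 7.85% in pieces of the genome. AGGTCA was thus no more frequent at the peaks than at tRNA genes without one, and CAAAGT no more frequent than in the genome. These are matches of letters and not shown binding sites.

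Letters of the tRNA promoter boxes were frequent at these peaks, which follows from choosing the peaks by their distance to tRNA genes. GTTCGA, the more common B box form, was within 50 bp of 39.3% of summits and of 65.3% of those inside the gene, against 3.47% of other peaks. Windows centred on tRNA genes held it about as often with a summit (71.5%) as without (73.1%). TGGCNNAGT, a form of the A box, was at 9.62% of summits and 1.09% of other peaks, and in 10.3% and 8.88% of windows on tRNA genes with and without a summit. AGGTCA and the B box letters were counted apart, so a summit can hold both.

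The other polymerase III genes that were counted gave a mixed picture. U6 snRNA genes, also made by polymerase III, carry no usable name in the annotation and were not counted apart. rpr-1, the RNA of RNase P, which trims the 5′ end of tRNAs, had a summit inside it with a signal of 213 (109 and 102). mrpr-1, the RNA of the related RNase MRP, had one with 179 (94.9 and 84.9). None of the 16 annotated 5S rRNA genes had a summit within 200 bp in the thresholded list, the full pooled list or the replicates' lists, which allows a share of up to 18.8%, and the nearest thresholded summit was 1376 bp away. These genes stand in a repeated array, where read placement is limited.

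A broad list of protein-coding genes was drawn up for tRNA synthesis, processing, export and modification. Some of its genes, such as larp-1, xpo-1 and adr-1, are not specific to tRNA. Of the 37 matched in the annotation, 10 had a summit in the promoter window (27.0%, interval 15.4 to 43.0). The share over all nuclear protein-coding genes was 18.6%, a difference within counting error. The replicates' strongest peaks gave 9 and 10. Among 20 genes of polymerase III and its factors, 3 had one: snpc-3.4 of the small nuclear RNA activating complex (signal 440; 236 and 202), and rpb-8 and rpac-19, which encode subunits shared between polymerases (324 and 243). The genes of the TFIIIC and TFIIIB parts on the list, such as tftc-1, tftc-3, tftc-5 and brf-1, had none. Among the 17 genes listed under processing, export and modification, 7 had one. The strongest was at larp-1 (1000, with 553 and 447 in the replicates), whose product belongs to the La-related proteins. Next were lars-1 (190), a leucyl-tRNA synthetase gene, and xpo-1 (188), an exportin gene.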

How the data were processed

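NHR-80-eGFP was profiled by ChIP-seq in 2 biological replicates of 1 group, per the labels. The labels name both GFP and nhr-80 as the antibody; the sample description gives GFP. The authors deposited narrowPeak lists whose signal column is the peak caller's value and whose −log10 q column reaches a ceiling and was not used to rank. Peaks were called on each replicate and on both pooled against a control; IDR was then applied to these lists to make the thresholded one, per the notes deposited with the samples. The sources used here name no aligner, no caller, no treatment of reads that map to several places and no IDR threshold. No read counts are in the lists, so depth is unknown.

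The ce11 lists were set against the WBcel235 genome and Ensembl release 115, and amino acids were taken from RefSeq (607 of 612 tRNA genes). The 18 mitochondrial peaks and 22 mitochondrial tRNA genes were left out. For each replicate the 7038 strongest peaks were used. Overlap meant at least 1 bp, and a peak's replicate value is that of the strongest overlapping peak. Shares carry 95% Wilson intervals, which cover counting error only, and a share of 0 carries the limit of 3 counts. No test was run, since there is 1 group. Genes and peaks were named by rule: the 12 highest signals, the strongest per chromosome and amino acid, the nearest to the 200 bp limit, the top cluster and the top pathway genes. The tRNA sequences printed first went down the peaks by signal, 1 per amino acid and at most 8, passing over every gene on chromosome I or with an exact copy there; the large families, the summit windows, the promoter box letters and the comparison by copy number were chosen after values were seen. The members and lists were chosen with earlier results of these data known. Of 41 pathway symbols, 37 matched. The software was Python 3.11.15 (numpy 2.4.6, scipy 1.17.1, pandas 2.3.3, matplotlib 3.10.9); the distance step, tested on simulated data, found 200 of 200 planted summits among 612 tRNA genes.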

Additional observations from a re-analysis of the deposited data

How the results depend on the processing

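No paired analysis was possible because there is 1 group. Depth is unknown, so differences are limited by counting error and by 2 replicates. With the summit inside the gene there were 124 peaks, at 20.3% of tRNA genes, and the ratio of median signals to other peaks was 0.640; keeping the strongest row of each interval gave 0.650. Limits of 100 and 500 bp gave 38.6% and 47.5% of tRNA genes, 40.6% and 50.7% on X, 36.9% and 44.9% on autosomes, and 46.9% and 45.5% of peaks on X. The full pooled list gave 490 peaks, 70.3% of tRNA genes, 73.9% on X, 67.3% on autosomes and 44.9% of peaks on X. Peaks at or above the median signal numbered 41, at 7.84% of tRNA genes, 7.97% on X and 7.74% on autosomes, with 43.9% of peaks on X. With pseudogenes added 32.5% of genes had a summit; unique genes alone gave 27.3% and copied genes 47.8%, an alternative chosen after seeing the data. Peaks with exactly 1 tRNA gene within 500 bp had a median position of 16 bp. Cluster gaps of 500 and 5000 bp put 17.2% and 43.9% of peaks at clustered genes. Promoter windows of 500 to 100 bp and 2000 to 500 bp held 13.4% and 41.4% of summits, and 13.5% and 32.4% of pathway genes. Windows of 100 bp on each side gave 22.2% for TGATAA, 11.7% for CAAAGT, 13.4% for AGGTCA, 67.4% for GTTCGA and 12.1% for TGGCNNAGT; summits inside the gene gave 10.5%, 3.23%, 10.5%, 65.3% and 14.5%.

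Leaving out either replicate, by taking the other's own strongest peaks, gave 40.8% to 43.8% of tRNA genes with a summit, 45.3% to 50.4% on X and 37.2% to 38.4% on autosomes. The share of peaks on X was 48.5% to 48.8%, the ratio of medians 0.680 to 0.701 and the median distance to a protein-coding start 1564 to 1617 bp. Clustered genes took 25.1% to 26.0% of the peaks and had a summit in 34.3% to 38.1% of cases. TGATAA was at 10.8% to 11.4% of summits, CAAAGT at 5.19% to 6.50%, TGGCNNAGT at 9.76% to 9.96%, and 24.3% to 27.0% of pathway genes had a summit.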
